A study of Mus musculus with 4 samples.

Results

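The genes of the translation initiation and elongation factors were examined in mouse fibroblasts after critical oxidative stress. They were chosen by name, as every gene on the array called *Eif* or *Eef* followed by a digit, leaving out the *Eif2ak* kinases. This gave 62 of the 30175 gene names on the array. They were measured by 99 probes, and each gene was represented by its brightest probe, the one with the highest mean signal over the arrays. Expression was profiled in NIH-3T3:Per2-Luc cells, an established line of mouse fibroblasts that carries a luciferase reporter driven by the *Per2* promoter. The groups were the control (0 mM H2O2, fresh medium) and pulsed cells, which received 5 mM H2O2 for 10 min (the cOS-pulse) and were taken 4 h, 20 h or 32 h afterwards. Each condition had 1 one-color array, and all 4 arrays lay on 1 slide, so no statistical test was possible. The control is labelled as a 4 h sample, and none was labelled for 20 h or 32 h, so time in culture and the pulse cannot be told apart at those times.

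Protein synthesis begins when the small ribosomal subunit, held by eIF3 and carrying the initiator tRNA brought by eIF2, is recruited to the capped end of an mRNA by the eIF4F complex. The subunit scans to a start codon under the control of eIF1 and eIF1A, the large subunit joins with the help of eIF5 and eIF5B, and eEF1 and eEF2 then drive each round of elongation. Cells under stress commonly lower initiation by phosphorylating eIF2, which blocks its recycling by eIF2B, and by freeing the 4E-BPs, which hold the cap-binding protein eIF4E. The array measures mRNA only, and none of these protein changes can be seen in it.

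All values below are log2 signals relative to the 75th percentile of the same array, and a ratio is the difference of 2 such signals. The scanner software gave each member's log2 ratio over control at 4 h an error between 0.20 and 0.29, which covers the spot only and not the spread between cultures. For 228 probes printed in 10 spots each, the log2 ratio at 4 h varied with a median SD of 0.055 between the spots of an array. Of the probes on the array, 52.7% to 59.1% were well above background, and no spot was saturated. All 7 fibroblast markers were above background on the 4 arrays, and *Epcam*, *Cdh1* and *Ptprc*, which mark epithelial and blood cells, were on none. The endothelial markers lay low but above background on some or all arrays, with *Pecam1* at -3.58 in the control and -2.88 at 4 h, and *Cdh5* at -4.12 and -2.25. Their part in the results below was not tested. In a culture measured in bulk, fewer cells with a transcript and less of it per cell cannot be told apart.

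Of the 62 genes, 57 were above background on all 4 arrays. *Eef1a2*, the elongation factor of muscle and nerve, *Eif2s3y*, the Y-linked copy of the eIF2 gamma subunit, *Eif4e3*, a cap-binding protein, and *Eif5b*, the factor that joins the subunits, did not reach a signal well above background on the 4 arrays. Each of these was measured by 1 probe, so a missing transcript and a probe that gives no signal cannot be told apart. *Eif4e1b*, a relative of eIF4E, was above background at 20 h and 32 h only. These 5 genes have no ratio at 4 h, and the counts for that time are over the other 57.

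At 4 h after the pulse most translation factor genes gave a higher signal than in the control. The signal of 50 of the 57 genes was above the control, with a median log2 ratio of 0.49. Over all 15806 genes measured on both arrays, 60.5% were above the control and the median was 0.17. The members were also less spread, with an interquartile range of 0.42 against 0.84 for all genes. The plot of the distributions shows this as a steep curve to the right of that of all genes. The comparison of spread is not matched for brightness. Most members fell in the brightest class of genes, described below, where the interquartile range for all genes was 0.54. In the other classes it lay between 0.85 and 1.04. How much of the narrower spread goes with brightness was not tested. Against all genes of any brightness, the counts past a fixed fold were near the background on the higher side and under it on the lower side. That background includes 2700 bounds, and no member had a bound at 4 h. At least 2-fold higher were 8 of 57 genes, where 11% of all genes above background on 1 or both arrays were. At least 2-fold lower was 1, where 8.21% of all genes were. At least 1.5-fold higher were 17 genes against 24.3% of all genes, and at least 1.5-fold lower were 4 against 16.2%.

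The zero point of these ratios depends on the scaling, and the 4 h array is the one it moved most. The median log2 ratio of all genes at 4 h was 0.17 with the 75th percentile, and it lay between -0.23 and 0.05 under 5 other scalings. Among all genes past 2-fold, the share that were higher went from 57.3% to between 26.0% and 46.4%. The number of translation factor genes above the control went from 50 to between 38 and 46, the number at least 2-fold higher from 8 to between 1 and 5, and the number at least 2-fold lower from 1 to between 2 and 4. A shift of the whole array leaves the distance between the members and all genes as it was. That distance was 0.32 at 4 h under 5 of the 6 scalings and 0.21 under quantile normalization. After the median of all genes was subtracted, 5 genes remained at least 2-fold higher, namely *Eif2s2*, *Eif1a*, *Eif1*, *Eif3j* and *Eif5*, where 8.14% of all genes were. In the same way 3 were at least 2-fold lower, namely *Eif2c1*, *Eif2d* and *Eif2c4*, where 10.9% of all genes were. The direction of 45 of the 57 genes at 4 h was the same under all 6 scalings. The other 12 were *Eef1d*, *Eef1g*, *Eif1b*, *Eif2a*, *Eif2b2*, *Eif2b4*, *Eif3f*, *Eif3i*, *Eif3k*, *Eif4e2*, *Eif4enif1* and *Eif5a2*, all of which were above the control by at most 0.35.

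**Figure D1:**
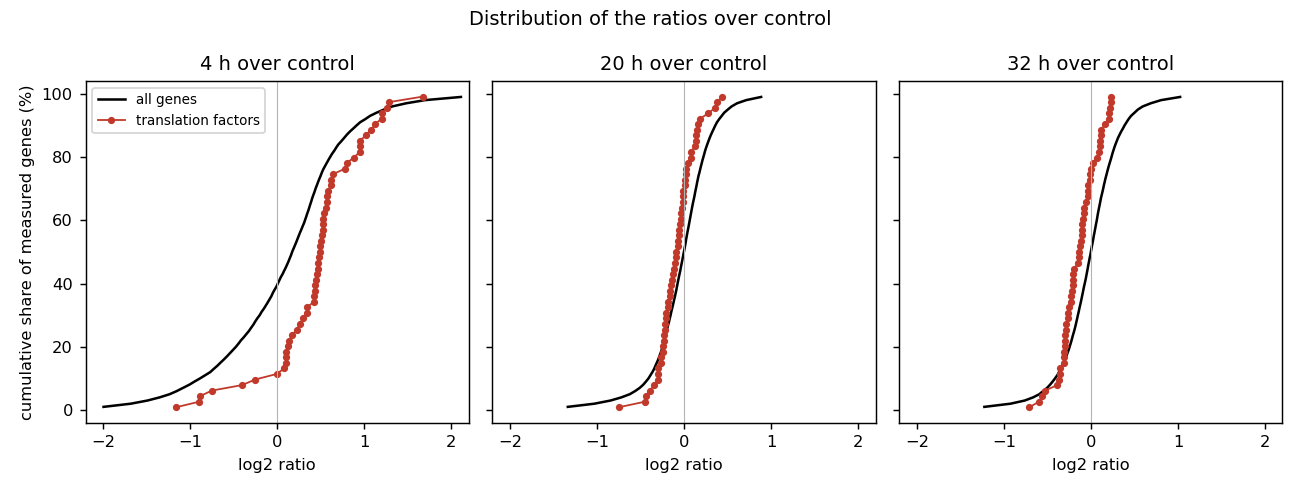
Cumulative share (vertical axis, percent) of log2 ratios over control (horizontal axis) at 4 h, 20 h and 32 h, for all measured genes (black) and for the translation factor genes (red, 1 point per gene). At 4 h the middle of the red curve lies to the right of the black one, with medians of 0.49 and 0.17, and at 20 h and 32 h it lies slightly to the left, with medians of -0.09 and -0.14 against values near 0.

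The ratio also moved with brightness. Of the 57 genes, 39 fell in the brightest 25% of all measured genes, by mean signal over the arrays. All 39 were above the control at 4 h, with a median log2 ratio of 0.51, where 73.2% of the 3952 genes of that class were and their median was 0.32. Of the 10 members in the next 25% of genes, 8 were above the control, with a median of 0.41 against 0.02 for all genes of the class. In the 25% below that, 2 of 7 members were above the control, and their median was -0.75 against 0.04. The dimmest 25% held 1 member, at 0.53, where 65.2% of all genes of the class were above the control and their median was 0.25. Members of the brightest and the next class were thus mostly higher at 4 h, and those of the class below mostly lower. Over all genes the medians did not rise steadily with brightness. At least 2-fold higher at 4 h were 6 of the 39 members in the brightest class, against 5.67% of its genes. In the next class it was 2 of 10 against 6.56%. In the dimmer classes no member was, against 8.30% and 12.5% of their genes. The part of brightness in the members' shift, in their spread and in these counts was not tested.

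Later the difference was small and in the other direction. At 20 h the median log2 ratio of the members was -0.09 against -0.001 for all genes, and 17 of 57 measured genes were above the control. At 32 h it was -0.14 against -0.0006, and 13 of 57 were above. At 20 h the only gene at least 2-fold higher was *Eif4e1b*, which has a bound and not a measured ratio, with 1.44% of all genes at least 2-fold higher, and no member was at least 2-fold lower, with 3.51% of all genes. At least 1.5-fold higher was again *Eif4e1b* alone (4.5% of all genes), and at least 1.5-fold lower was *Eif2b3* (7.67%). At 32 h *Eif4e1b* was the only member at least 2-fold (2.24% of all genes) or 1.5-fold (6.02%) higher. No member was at least 2-fold lower at 32 h (2.77%), and 2 were at least 1.5-fold lower (7.12%), namely *Eif2b3* and *Eif2c3*. Between 20 h and 32 h no member differed by 1.5-fold, and the median log2 ratio of 32 h over 20 h was -0.05. The scaling decides the direction of many of these small ratios, and 35 of 57 genes at 20 h and 18 of 57 at 32 h lay on the other side of the control under at least 1 other scaling. The control is shared by the 3 comparisons, so a high or low control signal enters all of them.

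**Figure D2:**
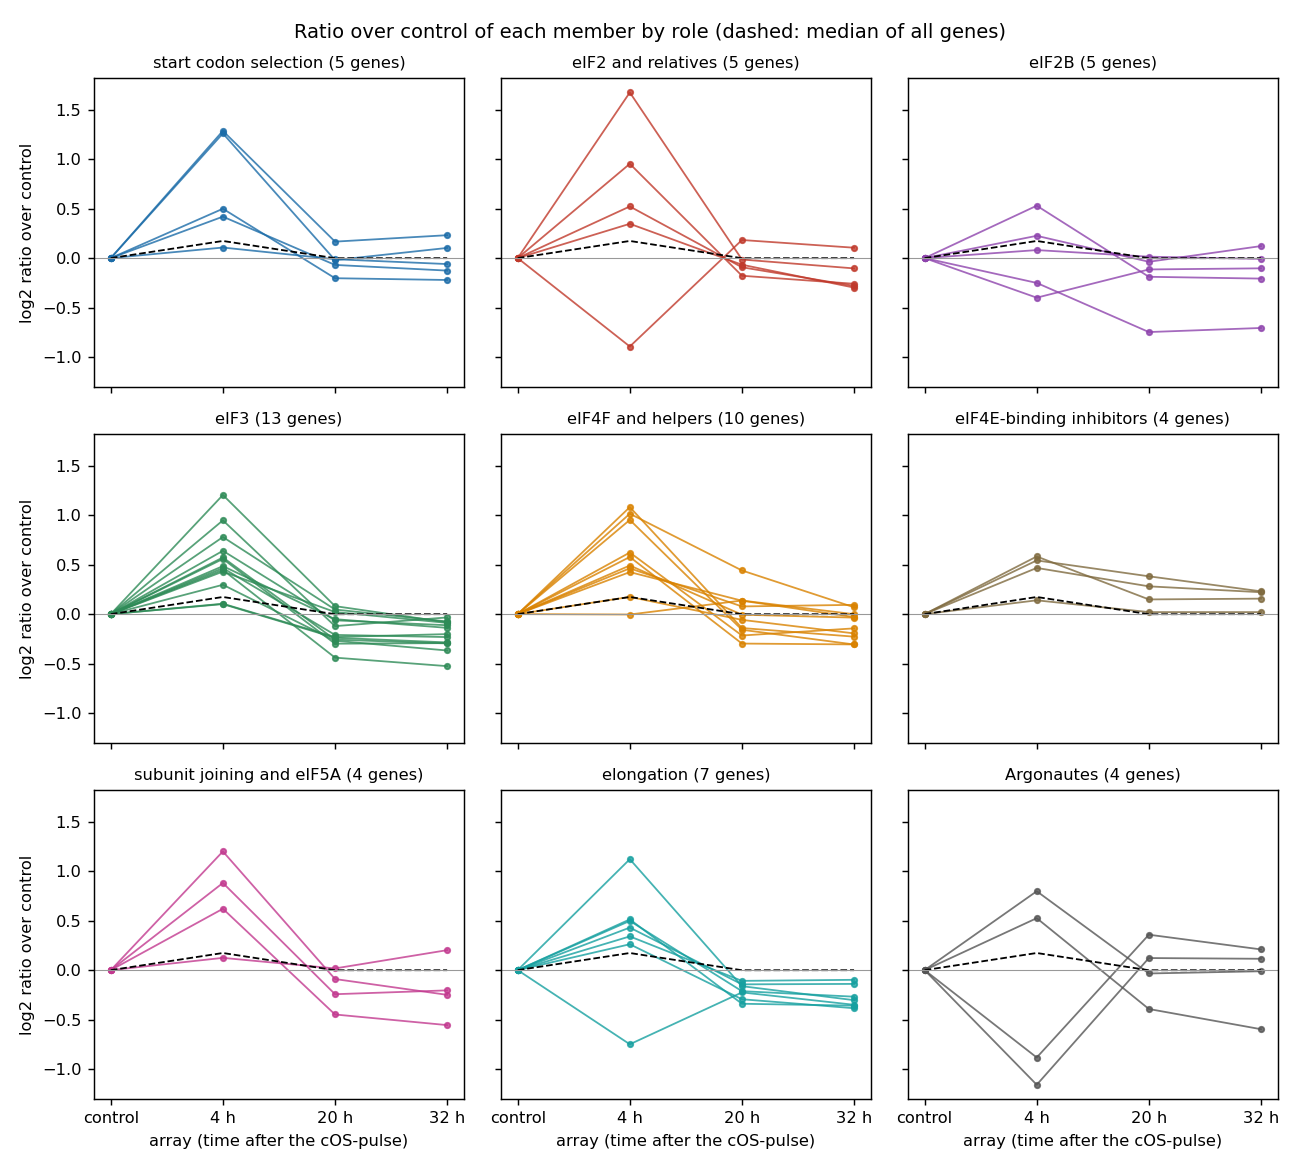
Log2 ratio over control (vertical axis) of each translation factor gene measured on all arrays, by role, at the control (0 by definition), 4 h, 20 h and 32 h (horizontal axis, arrays evenly spaced and not to the scale of time), with the median of all genes dashed. In most panels the lines peak at 4 h and come back to or under the control by 20 h, while *Eif2d*, *Eef2k*, *Eif2c1* and *Eif2c4* dip at 4 h and *Eif2b3* lies lowest at 20 h and 32 h.

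Genes of the translation machinery often begin transcription at a C within a run of pyrimidines, the TOP start, through which mTOR and LARP1 control the translation of the mRNA. The annotated starts of 48 of the 62 genes were found in the RefSeq promoter table (GRCm38.p6), which covers 250 bases before to 50 bases after each start. A TOP-like start was taken as a C within 5 bases of the start followed by at least 5 pyrimidines. It was held by 8 of the 48 genes, by 10.2% of the 32851 promoters of the table, and by 12.7% of its genes that were above background on at least 1 array. Of these 8, 4 are shown, for the main elongation factor, an eIF3 subunit, the X-linked eIF2 gamma subunit and the eIF4G scaffold. Each is 30 bases centred on the annotated start, on the strand of the gene, with the pyrimidine run in capitals.
Eef1a1 (chr9:78481710-78481739, minus strand): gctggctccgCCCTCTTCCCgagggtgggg
Eif3f (chr7:108934400-108934429, plus strand): tctgttctaggCTCTCTCTCTTTCTCggca
Eif2s3x (chrX:94212637-94212666, minus strand): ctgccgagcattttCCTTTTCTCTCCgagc
Eif4g1 (chr16:20672712-20672741, plus strand): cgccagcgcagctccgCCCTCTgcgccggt
The 7 measured genes with such a start had a median log2 ratio of 0.43 at 4 h, from -0.40 to 0.52, and none of them was at least 2-fold higher. The 38 measured genes without one had a median of 0.51, from -1.16 to 1.68. Of them 7 were at least 2-fold higher, where 11% of all genes were. Both classes rest on annotated starts. The starts used in these cells were not measured, so a gene can be in the wrong class.

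Clock proteins BMAL1 and CLOCK bind the E-box CACGTG, which reads the same on both strands. It was held by 12 of the 48 genes and by 7.15% of all promoters in the table, or by 10.9% of the genes in it that were above background on at least 1 array. The members' promoters were richer in G and C, with a median of 62.7% against 52.7% for all promoters and 59.3% for the detected genes. The E-box windows below are of the helicase, the cap-binding protein, the scaffold and eIF5A, the last of which lay at least 1.5-fold above the control at 4 h and below it later. Each is 30 bases on the strand of the gene with the motif in capitals.
Eif4a1 (chr11:69672595-69672624, minus strand): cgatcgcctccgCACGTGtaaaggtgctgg
Eif4e (chr3:138527192-138527221, plus strand): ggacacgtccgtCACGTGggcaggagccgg
Eif4g1 (chr16:20672661-20672690, plus strand): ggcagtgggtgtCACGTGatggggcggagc
Eif5a (chr11:69921443-69921472, minus strand): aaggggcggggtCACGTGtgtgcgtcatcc
The 12 genes with an E-box had median log2 ratios of 0.46 at 4 h, -0.21 at 20 h and -0.22 at 32 h, and the 33 measured genes without one had 0.50, -0.06 and -0.10. The other motifs were searched on both strands. The core TGACNNNGC of the antioxidant response element was held by 11 of the 48 genes, by 12.4% of all promoters and by 16.4% of the detected genes. The core TGATGNAA, to which ATF4 binds in amino acid response elements, was held by *Eef2k* and *Eif2s3x*, by 3.97% of all promoters and by 3.14% of the detected genes. The heat shock element, in the strict form of 3 inverted GAA units, was held by none and by 0.603% of all promoters. A match describes the letters of the window, not a site that is bound.

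Of the 5 genes of start codon selection, 2 were at least 2-fold higher at 4 h, *Eif1* and *Eif1a*, where 11% of all genes were. Their ratios went down to 0.84 and 0.88 under other scalings, short of 2-fold. *Eif1*, the gene of the factor that guards the fidelity of scanning, gave a log2 signal of 5.48 in the control, 6.74 at 4 h, 5.46 at 20 h and 5.58 at 32 h. The 4 h array stood apart and the other 3 lay within 0.12 of each other. This was 2.40-fold higher at 4 h, a log2 ratio of 1.26 ± 0.20 (error of the spots), and a second probe of the gene gave 0.98. *Eif1b*, its paralog, gave 2.01 in the control, 2.12 at 4 h and 1.95 at 32 h, and at 20 h it was within 0.01 of the control. All 4 values lay within the spot error, and its ratio of 0.11 at 4 h turned negative under each of the 5 other scalings. *Eif1a*, which encodes one form of eIF1A, gave 3.27, 4.56, 3.44 and 3.50, 2.44-fold higher at 4 h. *Eif1ax*, the X-linked gene of the other form, gave 4.16, 4.58, 4.09 and 4.03, with a ratio of 0.42 at 4 h. *Eif1ad*, named for an eIF1A-like domain, had a ratio of 0.50 at 4 h and -0.20 and -0.22 later. The median of the 5 genes at 4 h was 0.50, and 4 of them lay above the median of all genes.

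**Figure D3:**
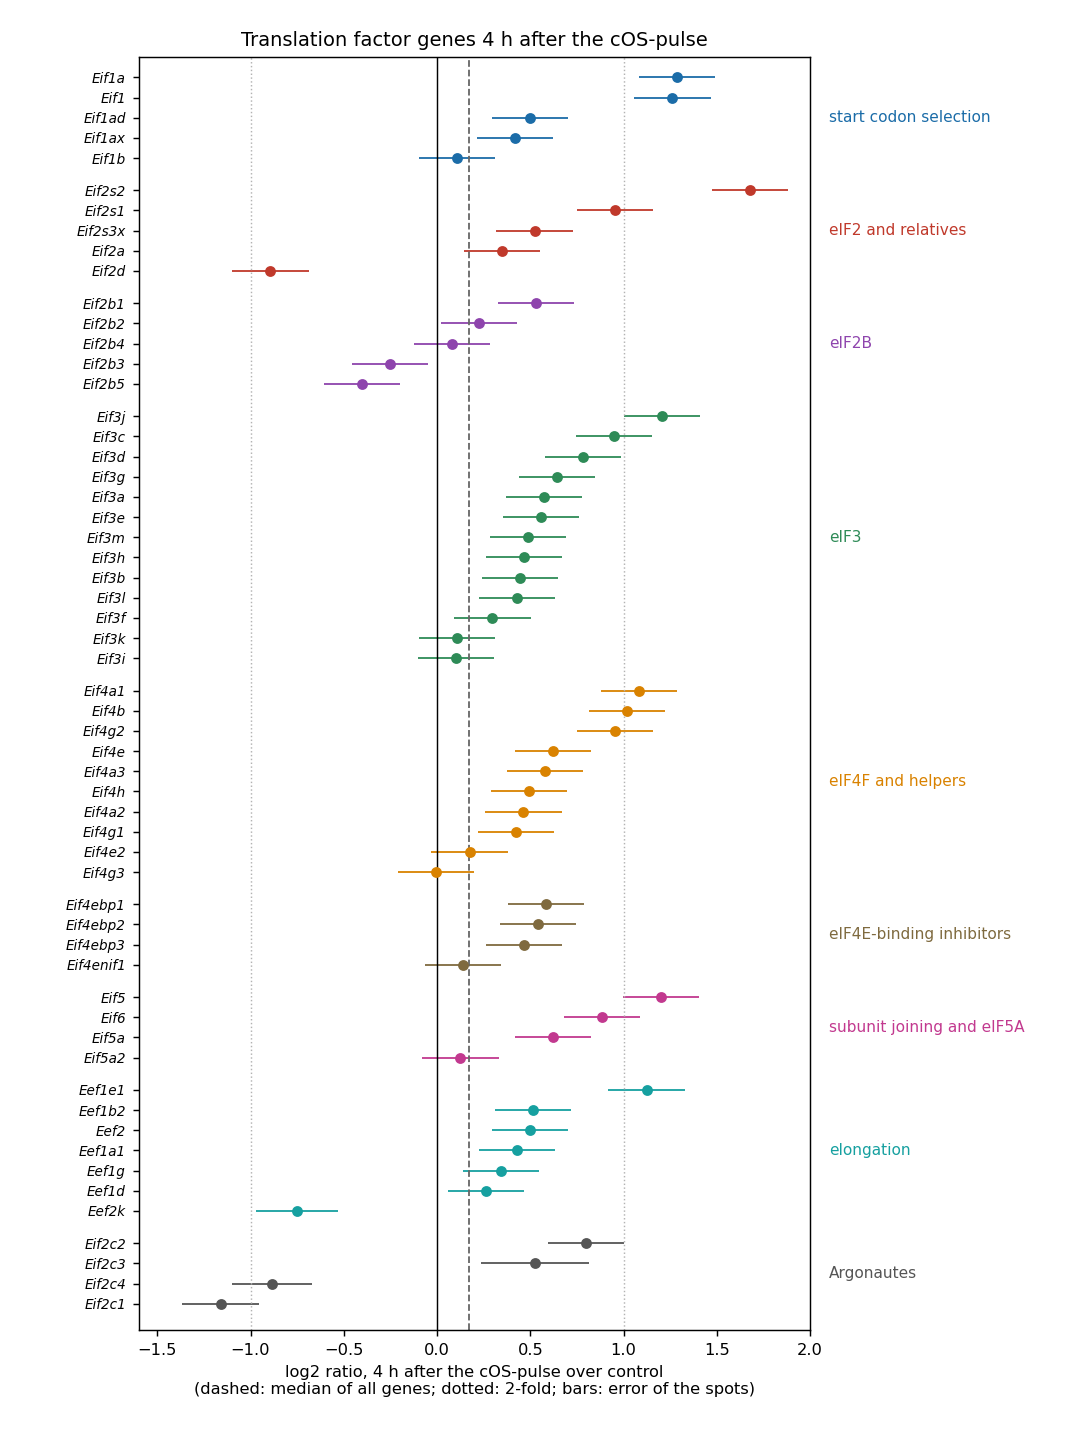
Log2 ratio of 4 h over control (horizontal axis) of the 57 measured translation factor genes, grouped and colored by role, with bars for the error of the spots, a dashed line at the median of all genes (0.17) and dotted lines at 2-fold. *Eif2s2* lies furthest to the right at 1.68 and *Eif2c1* furthest to the left at -1.16, and all 13 eIF3 genes lie to the right of 0, of which *Eif3f*, *Eif3i* and *Eif3k* cross it under another scaling.

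The eIF2 complex, which brings the initiator tRNA, held the gene with the highest ratio of all members. *Eif2s2*, its beta subunit, gave a log2 signal of 3.98 in the control, 5.66 at 4 h, 3.97 at 20 h and 3.88 at 32 h. It was 3.20-fold higher at 4 h, a log2 ratio of 1.68 ± 0.20, and within 0.10 of the control later. Its brightest probe lies at chr2:154698193-154698252 (mm9, minus strand), and the dimmer probe of the same gene gave a ratio of 0.64, so the size differed between probes and the direction did not. *Eif2s1*, the alpha subunit that stress kinases phosphorylate, gave 3.19, 4.14, 3.01 and 2.93, 1.94-fold higher at 4 h, with 0.49 from a second probe. That second probe gave -0.84 at 20 h and -0.60 at 32 h, where the brightest gave -0.18 and -0.26. *Eif2s3x*, the gamma subunit whose TOP-like start is shown above, gave -0.06, 0.46, -0.16 and -0.34. Its ratio at 4 h was 0.52, and 0.96 by a second probe. The genes of the 3 subunits were thus all higher at 4 h under the 6 scalings. Their order depended on the probe, since the second probes put *Eif2s3x* highest.

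Both other genes of this group act apart from eIF2. *Eif2a*, an alternative carrier of initiator tRNA, had a ratio of 0.35 at 4 h, which turned negative under 2 of the 5 other scalings. *Eif2d*, which takes part in reinitiation and recycling, was lower at 4 h. It gave -0.27, -1.17, -0.09 and -0.17, a signal 1.86-fold lower at 4 h only, and a second probe gave a ratio of -0.94 against -0.89. It was one of 6 genes among the members that were below the control at 4 h by more than the error of their spots.

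The eIF2B genes, which encode the exchange factor that reloads eIF2 with GTP, had a median log2 ratio of 0.08 at 4 h. Of the 5, 3 were above the control, of which *Eif2b2* and *Eif2b4* turned negative under other scalings, and 2 lay above the median of all genes. *Eif2b1*, the alpha subunit, was the highest with signals of 2.38, 2.91, 2.19 and 2.17 and a ratio of 0.53. *Eif2b5*, the catalytic epsilon subunit, was the lowest with 0.81, 0.41, 0.70 and 0.71 and a ratio of -0.40. *Eif2b2* and *Eif2b4* had ratios of 0.23 and 0.08. *Eif2b3*, the gamma subunit, was lower on all 3 arrays after the pulse by more than its spot error, as only *Eef2k* was among the other members. It gave 0.25 in the control, -0.00 at 4 h, -0.50 at 20 h and -0.46 at 32 h, with ratios of -0.25, -0.75 and -0.71. A second probe gave -0.31, -0.71 and -0.83, and the direction was the same under all 6 scalings.

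eIF3, the scaffold of the small subunit complex and itself the largest initiation factor, was the largest role group. All 13 genes were above the control at 4 h, with a median log2 ratio of 0.49 and an interquartile range of 0.21, and 11 lay above the median of all genes. The directions of *Eif3f*, *Eif3i* and *Eif3k* flipped under other scalings. *Eif3j*, the loosely bound subunit, was the only one at least 2-fold higher by its brightest probe, with 1.94, 3.15, 2.02 and 1.86 and a ratio of 1.21. A second probe gave 1.12 and the third -0.00416, so this call holds for 2 of its 3 probes. RefSeq names the gene of these probes *Eif3j1*, and signal from a near-identical copy cannot be told apart from it here. *Eif3c* and *Eif3d*, parts of the core, had ratios of 0.95 and 0.78, and a second probe of *Eif3c* gave 1.10, which is past 2-fold. *Eif3i*, the lowest, gave 2.82, 2.93, 2.58 and 2.54, a ratio of 0.10. At 32 h all 13 were below the control, from -0.53 for *Eif3b* to -0.03 for *Eif3c*, with a median of -0.20, and under other scalings *Eif3c*, *Eif3d*, *Eif3g*, *Eif3j*, *Eif3l* and *Eif3m* moved to the other side.

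In eIF4F, which unwinds and binds the capped end, 9 of 10 measured genes were above the control at 4 h, of which *Eif4e2* turned negative under other scalings, and paralogs of the helicase and of the scaffold differed. *Eif4a1*, the main helicase, gave a log2 signal of 5.89 in the control, 6.97 at 4 h, 5.74 at 20 h and 5.66 at 32 h, 2.12-fold higher at 4 h. *Eif4a2*, its close paralog, gave 4.39, 4.85, 4.46 and 4.48, with a ratio of 0.46. *Eif4a3*, which serves in the exon junction complex rather than in eIF4F, gave 1.88 at 4 h and 0.99 at 32 h, which was 0.58 above and -0.31 from the control, and its 20 h signal lay within 0.01 of that at 32 h. *Eif4a1* and *Eif4a2* thus differed at 4 h by more than both spot errors, and *Eif4a3*, at 0.58, lay between them. The ratio of *Eif4a3* was -0.30 at 20 h, which turned positive without scaling, and -0.31 at 32 h, negative under all 6 scalings.

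*Eif4b*, which stimulates the helicase, gave 2.53, 3.55, 2.97 and 2.60. It was 2.02-fold higher at 4 h and still 0.44 higher at 20 h, the highest measured ratio of any member at that time, and its log2 ratio of 32 h over 20 h was -0.37, the lowest of any member. All 3 of its probes were higher at 4 h, from 0.49 to 1.02. At 20 h its dimmer probes gave 0.45 and 0.13, the last within its spot error. *Eif4h*, which acts in the same way, had ratios of 0.49, -0.01 and -0.04.

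The scaffold genes also differed at 4 h. *Eif4g1*, the main scaffold, gave 4.23, 4.65, 4.36 and 4.20, with a ratio of 0.43. *Eif4g2*, a form that does not bind eIF4E, gave 2.68, 3.63, 2.52 and 2.37, 1.94-fold higher at 4 h. *Eif4g3* gave 1.37, 1.37, 1.51 and 1.37, so its signal at 4 h equalled the control. *Eif4e*, the cap-binding protein itself, gave 2.50, 3.12, 2.28 and 2.35, with a ratio of 0.62. Its other probes gave 0.77 and -0.15, the last within its spot error. *Eif4e2*, a cap-binding protein that represses translation, gave 2.78, 2.96, 2.72 and 2.59, a ratio of 0.17 that turned negative under 4 of the 5 other scalings. A second probe of *Eif4e2* gave 0.47, which lay within the spot errors of *Eif4e*, and the third was above background at 4 h only.

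*Eif4e1b* was the only member with a signal that appeared after the pulse. Its brighter probe gave -5.15 in the control and -6.48 at 4 h, both not well above background, and -3.02 at 20 h and -2.83 at 32 h, both above it. It was at least 3.33-fold higher at 20 h and at least 3.82-fold higher at 32 h. The other probe of the gene stayed under that limit on all 4 arrays, so the appearance rests on 1 probe. *Eif4e3* gave -7.02, -7.20, -7.37 and -6.97, near the median of the negative control spots, which lay between -7.21 and -6.73.

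The 4E-BP genes, whose proteins hold eIF4E away from eIF4G, stayed above the control on each array after the pulse. *Eif4ebp1* gave a log2 signal of 4.45 in the control and 5.03, 4.60 and 4.60 after the pulse. *Eif4ebp2* gave 2.53, 3.07, 2.91 and 2.76, and *Eif4ebp3* gave 0.59, 1.06, 0.88 and 0.82. The ratios at 4 h were close, at 0.58, 0.54 and 0.47. At 20 h they were 0.15, 0.38 and 0.28 and at 32 h 0.16, 0.23 and 0.22, while the members as a whole had medians of -0.09 and -0.14. The direction of each was the same under all 6 scalings at each time, but *Eif4ebp1* at 20 h and 32 h was within its spot error. *Eif4enif1*, which carries eIF4E into the nucleus, gave 0.79, 0.93, 0.81 and 0.81.

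Of the genes for subunit joining, *Eif5*, which triggers the GTP hydrolysis of eIF2 at the start codon, gave 3.67, 4.87, 3.58 and 3.42. It was 2.30-fold higher at 4 h, and a second probe gave a log2 ratio of 1.04. *Eif6*, which keeps the large subunit from joining early, had a ratio of 0.88 and of 0.85 and 0.23 by its other probes. *Eif5a*, the hypusine-bearing factor that helps ribosomes through difficult peptide bonds, gave 4.11 in the control, 4.73 at 4 h, 3.66 at 20 h and 3.56 at 32 h. Measured by 1 probe only, it was above the control at 4 h by 0.62 and below it later, at -0.45 and -0.56. These directions were the same under all 6 scalings, but the 20 h ratio came within its spot error without scaling, at -0.12. *Eif5a2*, its paralog, gave -0.72, -0.60, -0.71 and -0.52, all within the spot error of the control.

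Most elongation factors moved alike, and the 7 measured genes of the group had a median log2 ratio of 0.43 at 4 h. *Eef1a1*, which delivers tRNAs to the ribosome, gave a log2 signal of 7.15 in the control, 7.58 at 4 h and 7.01 at 32 h, with a 20 h signal within 0.01 of the last, and had ratios of 0.43, -0.14 and -0.14. *Eef1b2*, *Eef1d* and *Eef1g*, the parts of its exchange factor, had ratios at 4 h of 0.51, 0.26 and 0.34. *Eef2*, the translocase, had 0.50. Under other scalings *Eef1d* and *Eef1g* turned negative at 4 h. At 20 h and 32 h all 7 measured genes of this group were below both the control and the median of all genes. Their ratios ran from -0.34 to -0.11 at 20 h and from -0.39 to -0.10 at 32 h. Scaling alternatives that raised the later arrays moved 6 of these genes above the control at 20 h. At 32 h *Eef1a1* and *Eef1g* moved above it under other scalings.

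Both genes of the group that stood apart at 4 h do not elongate peptides themselves. *Eef1e1* encodes a scaffold protein of the complex of tRNA synthetases, and it gave 0.73, 1.85, 0.57 and 0.43, 2.18-fold higher at 4 h. *Eef2k* encodes the kinase that inhibits eEF2, and it gave -1.62, -2.37, -1.85 and -1.97. Its signal was 1.68-fold lower at 4 h, and the other probe measured on both arrays gave a ratio of -0.89. Its ratios at 20 h and 32 h were -0.23 and -0.35, and the first of these turned positive without scaling.

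The Argonautes were on the list only through their older names, *Eif2c1* to *Eif2c4*, and they act with small RNAs and not as initiation factors. *Eif2c1* (*Ago1*) gave -0.28, -1.44, -0.16 and -0.16, 2.24-fold lower at 4 h and the only member past 2-fold in that direction. *Eif2c4* (*Ago4*) was 1.85-fold lower with a ratio of -0.88. *Eif2c2* (*Ago2*), the one with slicing activity, gave 1.84, 2.64, 1.81 and 1.83, 1.74-fold higher. *Eif2c3* (*Ago3*), whose spots had the largest error of any member, had ratios of 0.53 at 4 h and -0.60 at 32 h. The group was split at 4 h, and without it the median of the other 53 members was still 0.49, with 48 above the control.

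Where a gene had several probes, they mostly gave like values at 4 h. Their agreement at 20 h and 32 h was not counted, and some genes differed there, such as *Eif2s1* with -0.18 and -0.84 at 20 h. Of 23 genes with at least 2 probes measured at 4 h, 19 had all probes on the same side of the control. The other 4 were *Eif3j*, *Eif3k*, *Eif4e* and *Eif4g3*, and in none did 2 probes lie on opposite sides by more than their spot errors. The median range between the probes of a gene was 0.16 on the log2 scale, and 16 of the 23 lay within 0.3. The widest were *Eif3j* at 1.21 and *Eif2s2* at 1.04.

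**Figure D4:**
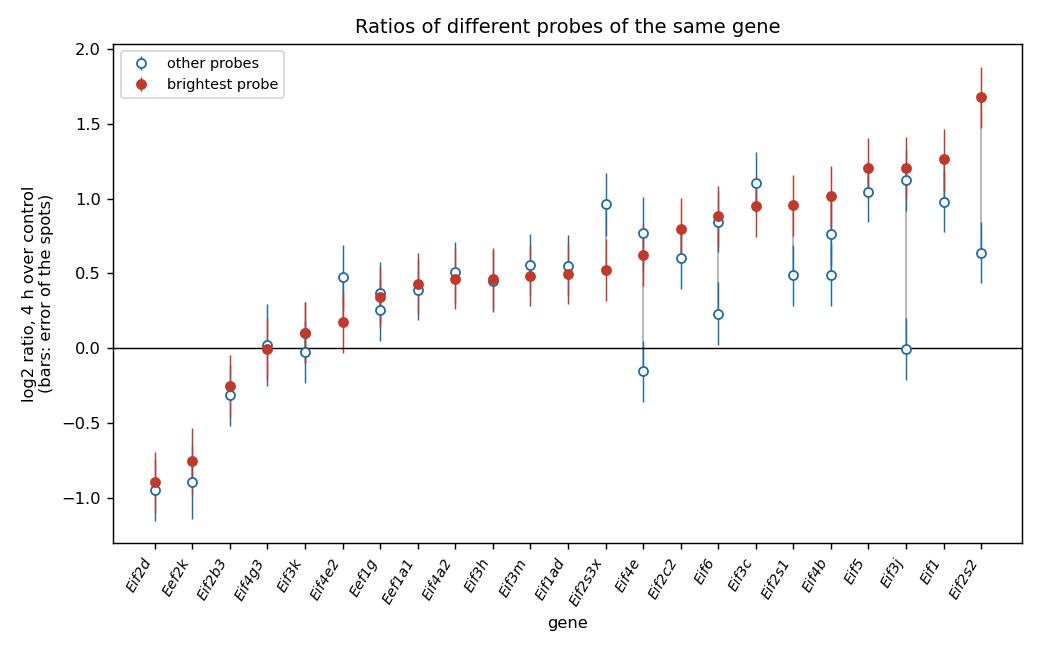
Log2 ratio of 4 h over control (vertical axis) of each probe measured on both arrays, for the 23 genes (horizontal axis) with at least 2 such probes, with the brightest probe filled and the others open, and bars for the error of the spots. Most probes of a gene overlap within their bars, and *Eif2s2*, *Eif3j* and *Eif4e* show the widest ranges.

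The other genes of the pathway, 43 in all, had a median log2 ratio of 0.34 at 4 h. At least 2-fold higher were 3 of the 43, or 6.98% against 11% of all genes, namely the termination factor *Etf1* at 1.69 and both regulatory subunits of the phosphatase that removes phosphate from eIF2, *Ppp1r15a* at 1.58 and *Ppp1r15b* at 1.67. *Eefsec*, the elongation factor for selenocysteine, was the only one at least 2-fold lower at 4 h, at -1.51, or 2.33% of the list against 8.21% of all genes. The 4 eIF2 kinases, left out of the members by the naming rule, lay between -0.26 and 0.40. The inhibitor of the helicase eIF4A, *Pdcd4*, had ratios of 0.49 at 4 h, -1.02 at 20 h and -0.94 at 32 h. The translation factors of mitochondria had a median of 0.05 at 4 h over 6 genes. Of 81 measured genes of cytosolic ribosomal proteins, 80 were above the control at 4 h with the 75th percentile scaling, with a median of 0.41 and an interquartile range of 0.10, so the translation factors had a like median and were more spread. The 20 cytosolic tRNA synthetases had a median of 0.60. Both lists lay below the control later, with medians of -0.22 and -0.18 at 20 h, beside -0.09 for the translation factors.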

How the data were processed

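Total RNA of NIH-3T3:Per2-Luc cells was hybridised by the authors to one-color Mouse GE arrays. The authors deposited spot intensities from Agilent Feature Extraction 10.7.3.1 (background and spatial trend subtracted), and a linear, uncentred table that equals them after division by 1 constant for each array. Groups were taken from the labels. The log2 signal was averaged over the unflagged spots of each of 39429 probes, and the array's 75th percentile was subtracted. A probe was above background when at least 50% of its spots were. A ratio was measured where both arrays were, and was a bound where only 1 was. For bounds, the dim array took the larger of 2 values, its own signal or the smallest that passed the detection limit there. Background percentages are over genes above background on 1 or both arrays. These include some genes with no ratio, whose dim array took a value not below that of the other.

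The members and lists were chosen with earlier results of these data known. The following were chosen after seeing the values: the lists of ribosomal proteins and tRNA synthetases, the brightness classes, subtraction of the median of all genes, and leaving out the Argonautes. *Eif4e1b* was placed with eIF4F. Signals on all arrays are given for members at least 2-fold from the control, for the extremes of each role group and for paralogs; *Eif2b3*, *Eif2s1*, *Eif4h* and similar cases were added for their values. RefSeq symbols matched all 62 genes, and the accession of the brightest probe matched for 61. *Eef1d*, *Eef1g*, *Eif1a*, *Eif2b3*, *Eif2c2*, *Eif3e*, *Eif3h*, *Eif3i*, *Eif4e1b*, *Eif4e3*, *Eif4ebp1*, *Eif4ebp3*, *Eif4g2* and *Eif6* had no entry in the promoter table. Probe coordinates are mm9, as in the file headers.

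There were 12 alternatives, covering scaling, background correction (normexp of limma 3.58.1, R 4.3.3, offset 50), filters, choice of probe and threshold. Other steps used Python 3.11.15, numpy 2.4.6, pandas 2.3.3, scipy 1.17.1 and matplotlib 3.10.9. On simulated data all 200 of 200 probes changed 4-fold at 4 h were recovered among 39429, with 0 false calls. This checked the steps of the calculation only. It does not give the error rate of the calls on the real arrays, since each condition had 1. The paper names SAM, which was not repeated with 1 array per condition. The number of arrays limits the precision.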

Additional observations from a re-analysis of the deposited data

Results flagged for a closer look

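*Eif5a* lay on opposite sides of the control at different times, with log2 ratios of 0.62 at 4 h, -0.45 at 20 h and -0.56 at 32 h. All of these come from the 1 probe of the gene. With the 75th percentile scaling it was the only translation factor gene at least 1.5-fold higher or lower at 4 h and at least 1.3-fold on the other side later. At 1.54-fold, its 4 h value was close to that limit. The alternatives that shift a whole array lowered the 4 h ratios, and *Eif5a* did not reach 1.5-fold under them. The difference between the times was not tested, since each time had 1 array.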

How the results depend on the processing

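The distance between the median log2 ratio of the translation factor genes and that of all genes kept its direction under every alternative run. Scalings that shift a whole array by a constant could not move it, so they do not bear on its stability. The other alternatives moved it by less than 0.14, the robust SD of the ratios of 32 h over 20 h over all genes. That limit is larger than the distances themselves at 20 h and for 32 h over 20 h, so it says little there. The distance lay between 0.21 and 0.32 at 4 h and between -0.14 and -0.06 at 20 h. At 32 h it lay between -0.17 and -0.11, and for 32 h over 20 h between -0.05 and -0.03. The counts past 2-fold at 4 h did not hold in the same way. The number of genes at least 2-fold higher, 8 with the 75th percentile, was 1 with scaling on the median or on the spike-ins, 2 without scaling, 3 with quantile normalization and 5 with the 75th percentile of probes detected on all arrays, with the dimmest detected probe of each gene or less the median of all genes. It was 17 at 1.5-fold and 1 at 3-fold. The number at least 2-fold lower, 1 as reported, was 4 with median scaling, spike-in scaling and no scaling, 3 with the 75th percentile of probes detected on all arrays or less the median of all genes, and 2 with quantile normalization or the median over detected probes. It was 4 at 1.5-fold and 0 at 3-fold. *Eif3j* was the only gene past 2-fold whose direction reversed, to -0.00416 at 4 h with its dimmest probe. Of all genes past 2-fold, 29.1% were higher at 20 h, and 27.9% to 64.2% under other scalings, and at 32 h 44.7% against 43.6% to 62.9%. No paired analysis was possible because each group had 1 array. Signals near background limit *Eif4e1b* and *Eif2c3* most.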
